A study of Homo sapiens with 6 samples.

Results

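The accessible regions at 10 genes that mark epithelial or mesenchymal cell identity were followed through 6 ATAC-seq peak lists of HCT116, a human colon carcinoma cell line. ATAC-seq marks open DNA by letting a transposase cut into it. The list held 5 epithelial genes (CDH1, EPCAM, CLDN4, CLDN7 and ESRP1) and 5 mesenchymal genes (ZEB1, ZEB2, VIM, SNAI2 and TWIST1), chosen by name. A region was taken when it overlapped a gene's hg19 interval with 10 kb added on both sides. Peaks of the 6 lists that shared at least 1 bp were merged, which gave 58926 regions in all, and 44 of them lay at the 10 genes, 35 at the epithelial and 9 at the mesenchymal ones. Both groups were the same cell line: 3 libraries carried the genotype and treatment label of NuMA depletion and 3 the label of wild type. NuMA lies in the nucleus between divisions and gathers microtubules at the spindle poles in mitosis. The labels state neither the means of depletion nor its duration. They do not say that replicates were separate cultures either, so a p-value here reflects only library-to-library spread, which could be technical.

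Epithelial cells adhere to each other through E-cadherin, the product of CDH1, and through the tight-junction claudins. In the epithelial-mesenchymal transition the repressors ZEB1, ZEB2, SNAI2 and, indirectly, TWIST1 lower these genes, partly by binding E-box motifs in their promoters, while the intermediate filament vimentin, the product of VIM, rises. Colon epithelium expresses the epithelial set, and accessibility at a gene is not a measure of its expression.

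Promoter sequences are shown for CLDN4, CLDN7, ZEB1, ZEB2 and VIM, since ZEB1 had a region at its start in every list and ZEB2 none, with the E-box CACCTG in capitals. Both strands were searched, and a match on the opposite one reads CAGGTG. They come from RefSeq on GRCh38.p14, a different build from the peaks, so no position was carried from one to the other. Of the 10 genes, ESRP1 and SNAI2 were left out of this search. Of the others, those 5 matched the promoter table used here, with 12 annotated starts. Each run below is the 250 bases before a start, 5′ to 3′ on the gene's strand. The motif was found before 3 of the 12 starts. Of 35116 promoters of the same length, 17.5% held it. A match is a description of letters and not a bound site. CLDN4 (chr7:73830746-73830995, plus strand) had none.
CLDN4: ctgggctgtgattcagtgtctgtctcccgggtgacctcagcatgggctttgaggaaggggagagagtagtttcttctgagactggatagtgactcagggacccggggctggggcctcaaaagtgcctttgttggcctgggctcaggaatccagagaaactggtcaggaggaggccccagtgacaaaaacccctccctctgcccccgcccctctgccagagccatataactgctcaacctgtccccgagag
ZEB1 (chr10:31318167-31318416, plus strand), the repressor, had 1 match before the first of its 7 starts, shown here, and 2 before the third, at -242 and -85.
ZEB1: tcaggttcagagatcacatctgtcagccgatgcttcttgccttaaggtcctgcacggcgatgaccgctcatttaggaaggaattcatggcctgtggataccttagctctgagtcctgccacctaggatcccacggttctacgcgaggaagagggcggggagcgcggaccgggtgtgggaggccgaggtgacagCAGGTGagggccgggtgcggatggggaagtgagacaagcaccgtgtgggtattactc
ZEB2 (chr2:144520120-144520369, minus strand), its paralogue, had none.
ZEB2: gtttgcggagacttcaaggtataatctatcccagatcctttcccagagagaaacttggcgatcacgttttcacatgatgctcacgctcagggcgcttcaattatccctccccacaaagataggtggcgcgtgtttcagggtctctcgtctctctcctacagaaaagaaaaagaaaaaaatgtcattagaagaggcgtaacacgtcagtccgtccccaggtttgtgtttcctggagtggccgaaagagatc
VIM (chr10:17227991-17228240, plus strand) had none either.
VIM: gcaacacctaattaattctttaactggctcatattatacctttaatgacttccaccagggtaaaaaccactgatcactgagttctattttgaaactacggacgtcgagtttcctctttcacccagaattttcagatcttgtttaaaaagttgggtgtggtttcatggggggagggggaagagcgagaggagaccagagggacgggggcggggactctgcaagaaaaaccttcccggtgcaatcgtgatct
CLDN7 had none before its first start and 4 before its second, where 0.122% of all promoters held 4 or more. The 4 are shown as 30-base stretches with 1 match in capitals each, from the farthest to the nearest to the start.
CLDN7 at -174: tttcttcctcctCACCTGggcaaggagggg
CLDN7 at -135: cgacttccggttCAGGTGagtgtcccttcg
CLDN7 at -20: cctacatatactCAGGTGcgccccacctgt
CLDN7 at -9: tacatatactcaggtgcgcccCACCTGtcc
Those numbers are the distance in bases of the motif's first base from the start. The TATA box TATAAA, searched on both strands, was found before none of the 12 starts and in 10.7% of all promoters.

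The lists held between 21783 peaks (NuMA-depleted replicate 3) and 45892 (NuMA-depleted replicate 2), and the wild-type lists between 32503 and 38685. Read totals are not in the files. The caller's pileup at the summit was recovered from the fold and p-value for every one of the 186 peaks at the 10 genes. It is called fragments below, though the caller's settings are not known, and ran from 7 to 75 with a median of 24.5. Fold below means this summit pileup over the caller's local background. It is each list's own value and is given as a description. A percentile is the rank of a peak's q-value within its own list, where 100 is the strongest. A peak that is missing from a list did not pass that list's threshold, which does not show closed chromatin.

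Taken as 2 sets, the epithelial genes held more accessible regions per length than the mesenchymal genes, but single genes of the sets overlapped. The 5 epithelial windows, 346 kb together, held 35 regions, or 10.1 per 100 kb. The 5 mesenchymal windows, 467 kb together, held 9, or 1.93 per 100 kb, beside 1.94 per 100 kb over the genome up to the last peak of each chromosome. Of the epithelial regions, 15 (42.9%) were called in all 6 libraries, and each of the 5 windows had at least 1 of them. These counts include the flanks: 5 epithelial regions lay beyond a gene's end, 3 of them called in all 6. Another 6 lay upstream, 2 of them called in all 6, and in the mesenchymal set 1 region lay upstream. At CLDN7 the only region called in all 6 lay beyond the gene's end. Of the mesenchymal regions 2 (22.2%) were called in all 6, at ZEB1 and SNAI2. Over all merged regions the share was 28.9%. By gene the density ran from 5.75 (ESRP1) and 7.63 (CDH1) to 16.7 per 100 kb (CLDN4 and CLDN7) in the epithelial set. In the mesenchymal set it was 12.0 at SNAI2, 6.67 at VIM, 4.35 at TWIST1, 1.29 at ZEB1 and 0 at ZEB2, so the low value of that set rests on the long ZEB1 and ZEB2 windows. The genes were chosen by name and their windows differ in length from 23 to 232 kb, so these are counts without a test.

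**Figure D1:**
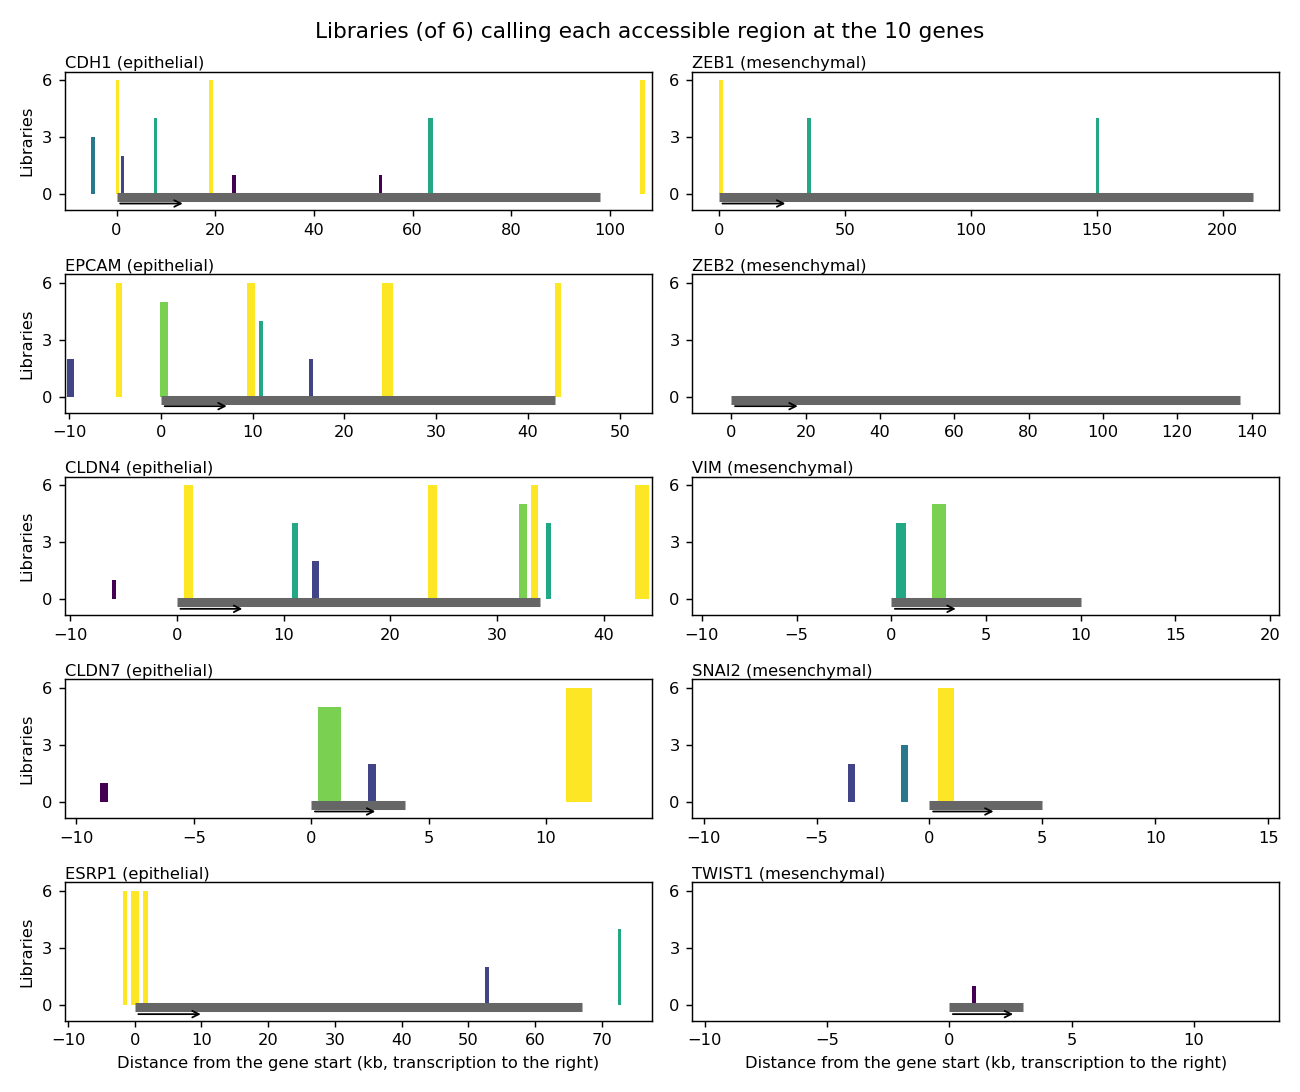
Accessible regions at each of the 10 genes, by distance from the start of the gene's interval in kb (x axis). Bar height and colour give the number of libraries, of 6, that called the region. The grey bar is the gene's interval, which for EPCAM and CLDN4 begins upstream of the usual promoter. Transcription runs to the right, and 10 kb are shown on each side. ESRP1 has 3 regions called in all 6 libraries around its start, and ZEB2 has no region.

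CDH1, which encodes E-cadherin, lies on chromosome 16 from 68.771 to 68.869 Mb and had 9 regions, 3 of them called in every library. The region over its start, at 68770868 to 68771435, had folds of 6.24, 4.68 and 4.99 in NuMA-depleted replicates 1, 2 and 3. In wild-type replicates 1, 2 and 3 the folds there were 6.87, 7.91 and 6.33. The 3 depleted folds thus all lay below the 3 wild-type ones, a pattern seen at 2 of the 17 member regions called in all 6 libraries. Over all 17009 such regions it was seen at 8.4%, and the opposite pattern, seen at 0 of the 17, at 1.76%. Each list has its own fold scale, so no test was made.

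The CDH1 site inside the gene with the highest median rank lay 18.9 to 19.5 kb after the start, at 68789937 to 68790451. Its folds were 8.22, 7.36 and 7.87 in the depleted libraries, against 8.69, 7.51 and 7.37 in wild type, so the groups overlapped. It ranked between percentile 67.9 and 87.3 of its lists. Of the inner sites described next, that at 7.62 kb had higher folds in wild-type replicates 2 and 3. The one at 63.1 kb had a higher fold in wild-type replicate 2. The third region called everywhere, at 68877211 to 68878145, lay 8.21 kb beyond the end of CDH1. There the folds were 9.38, 9.70 and 8.44 in depleted and 8.90, 11.0 and 8.48 in wild-type libraries, again overlapping. TANGO6 is the next coding gene on that side in RefSeq's gene order, and no hg19 annotation was used to assign the region to either gene.

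The other 6 CDH1 regions were each called in 1 to 4 libraries, and none of them by NuMA-depleted replicate 3. The region 7.62 to 8.15 kb into the gene, at 68778621 to 68779146, was called in all 3 wild-type libraries with folds of 7.68, 9.17 and 7.62. Among the depleted libraries only replicate 1 called it, with a fold of 7.32. The region at 68834126 to 68835112, 63.1 to 64.1 kb into the gene, had folds of 7.43, 10.1 and 6.58 in the wild-type libraries. Only NuMA-depleted replicate 2 called it among the depleted ones, with a fold of 5.96. Both were thus called in every wild-type and in 1 depleted library, a different one each time. A site 1.08 to 1.40 kb after the start was called in wild-type replicates 2 and 3 with folds of 4.67 and 3.72, and 2 more, with folds of 4.36 and 4.77, by wild-type replicate 2 alone.

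CDH1 had the widest gap between the groups in peak number of the 10 genes. Its window held 4, 5 and 3 peaks in the depleted lists and 5, 9 and 7 in the wild-type lists, which is 4.0 ± 1.0 against 7.0 ± 2.0 (SD, n = 3 each). The groups touched at 5 peaks, and the exact permutation test, two-sided, gave p = 0.2, where 0.1 is the smallest value that 3 against 3 can give. Taking the strongest 21783 peaks of each list, the numbers were 4, 2 and 3 against 5, 5 and 5, which no longer overlapped (exact p = 0.1). They also did not overlap without NuMA-depleted replicate 2 (exact permutation p = 0.2) or without wild-type replicate 1 (exact permutation p = 0.1). With all peaks but no flanks they were 3, 3 and 2 against 4, 7 and 5 (exact permutation p = 0.1). In the other alternatives the groups touched. These were a −log10 q of at least 5, flanks of 5 or 20 kb, and omission of any other single library. Of 100 kb tiles with a peak, groups that did not overlap made up 1.59% with all peaks and 3.48% at equal numbers. They made up 5.7% without NuMA-depleted replicate 2 and 3.23% without wild-type replicate 1. The tiles count either direction and were not matched in length or peak number to the CDH1 window of 118 kb.

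EPCAM encodes an epithelial adhesion glycoprotein that also serves as a marker of carcinoma cells. It lies on chromosome 2, in an interval from 47.572 to 47.615 Mb that begins upstream of its usual promoter. Its 8 regions included 4 called in all 6 libraries. The widest, at 47596093 to 47597255, had folds of 9.74, 8.63 and 6.61 in the depleted and 6.67, 9.84 and 7.83 in the wild-type libraries. The groups overlapped, with NuMA-depleted replicate 3 lowest and wild-type replicate 2 highest. A region that ended 4.27 kb before the interval, at 47567048 to 47567734, had folds of 9.17, 6.80 and 6.19 against 7.39, 7.45 and 6.68, also overlapping. At 47581424 to 47582229 the folds were 8.58, 6.32 and 5.23 in depleted and 5.15, 5.36 and 3.98 in wild-type libraries. There NuMA-depleted replicates 1 and 2 stood above every wild-type library and replicate 3 among them. The fourth, over the interval's last base at 47614986 to 47615656, had folds of 7.22, 7.70 and 4.68 against 7.12, 7.23 and 7.42, with NuMA-depleted replicate 3 lowest. The region over the interval's first base, at 47571843 to 47572728, lacked a call only in NuMA-depleted replicate 3 and had folds from 5.14 to 6.65 elsewhere. The EPCAM window held 6, 7 and 4 peaks in depleted and 6, 6 and 8 in wild-type lists (exact permutation p = 0.6, two-sided).

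CLDN4, a tight-junction claudin on chromosome 7, had the most peaks of the 10 genes, 40 over the 6 lists, in 9 regions. Of 4 regions called in all 6 libraries, the one at 73236574 to 73237417, inside the interval from 73.213 to 73.247 Mb, ranked highest by its median, between percentile 66.2 and 88.9, with folds of 8.39, 8.50 and 6.71 in depleted and 8.95, 7.69 and 7.38 in wild-type libraries. These overlapped. At 73213697 to 73214553, near the interval's start, the folds were 6.73, 9.41 and 6.96 against 8.11, 8.88 and 6.46. At 73255953 to 73257238, 8.95 kb beyond its end, they were 5.69, 8.24 and 5.39 against 4.93, 7.79 and 6.31. Both sets overlapped between the groups, with NuMA-depleted replicate 2 highest. METTL27 is the next coding gene beyond the interval's end in RefSeq's gene order, and the region there was not assigned to either gene. A pair of regions near the end of the interval, where the short CLDN4 gene itself lies, was weaker in fold. The first of the pair, at 73245081 to 73245822, had folds of 5.21 and 3.62 in NuMA-depleted replicates 1 and 2, no call in replicate 3, and 4.57, 4.97 and 3.75 in the wild-type libraries. The second, at 73246179 to 73246813, was called in all 6, with folds of 4.72, 4.13 and 3.41 against 3.24, 3.77 and 3.54. Low fold did not mean few fragments there: the second had 37, 45 and 18 fragments at its summit in the depleted and 22, 25 and 23 in the wild-type ones. Its local background was 1.91 to 3.34 times the median background of its library's peaks. The CLDN4 window held 6, 7 and 5 peaks in depleted and 8, 7 and 7 in wild-type lists (exact permutation p = 0.3, two-sided). Without NuMA-depleted replicate 2 the groups did not overlap, with a difference of -1.83 peaks (exact permutation p = 0.1, with 2 against 3). Of 100 kb tiles, 5.7% did not overlap in either direction at that setting. At equal numbers of peaks the CLDN4 difference was 0.333.

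CLDN7, another claudin, on chromosome 17 from 7.163 to 7.167 Mb, had 4 regions. The one that covers its annotated start side, at 7165717 to 7166710, lacked a call only in NuMA-depleted replicate 3. Its folds were 4.67 and 3.75 in NuMA-depleted replicates 1 and 2 and 3.75, 4.59 and 4.48 in the wild-type libraries, so the groups overlapped. It ranked between percentile 10.7 and 35.4, in the weaker part of each list. The CLDN7 region called in all 6 libraries lay beyond the gene's end, at 7155041 to 7156163, on the side of ELP5, with folds of 6.19, 6.73 and 5.05 against 6.61, 7.80 and 7.11. The window held 2, 3 and 1 peaks in depleted and 2, 3 and 3 in wild-type lists (exact permutation p = 0.7, two-sided).

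ESRP1, an RNA-binding protein that sets the epithelial splicing pattern, lies on chromosome 8 from 95.653 to 95.720 Mb. It carried 3 regions called in all 6 libraries within 2.01 kb of its start. The region over the start, at 95652484 to 95653630, had folds of 4.26, 4.23 and 4.25 in depleted and 4.33, 5.26 and 4.45 in wild-type libraries, taking the higher of 2 peaks in wild-type replicate 2. The 3 depleted folds were below the 3 wild-type ones, by as little as 4.26 against 4.33. The region just upstream, at 95651165 to 95651890, had folds of 4.94, 4.33 and 6.08 against 4.55, 6.52 and 5.54. The groups overlapped, and NuMA-depleted replicate 3, at percentile 92.6 of its list, gave the highest rank of the 186 member peaks. The region 1.27 to 2.01 kb after the start, at 95654271 to 95655006, was weaker, with folds from 3.22 to 3.77 over the 6 libraries.

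The ESRP1 start stood on the highest local background of the 10 genes. At its upstream region the summit held 57, 75 and 51 fragments in the depleted and 44, 64 and 53 in the wild-type group, all more than at any CDH1 or EPCAM region of the same library. The local background at the 3 start regions was 3.02 to 5.45 times the median background of each library's peaks. At the other ESRP1 regions, 52.5 kb or more after the start, it was 0.704 to 0.868 times that median. NuMA-depleted replicate 3 had the lowest of these ratios at all 3 start regions. A high background lowers a fold at a given number of fragments by construction, and what raised it was not tested.

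**Figure D2:**
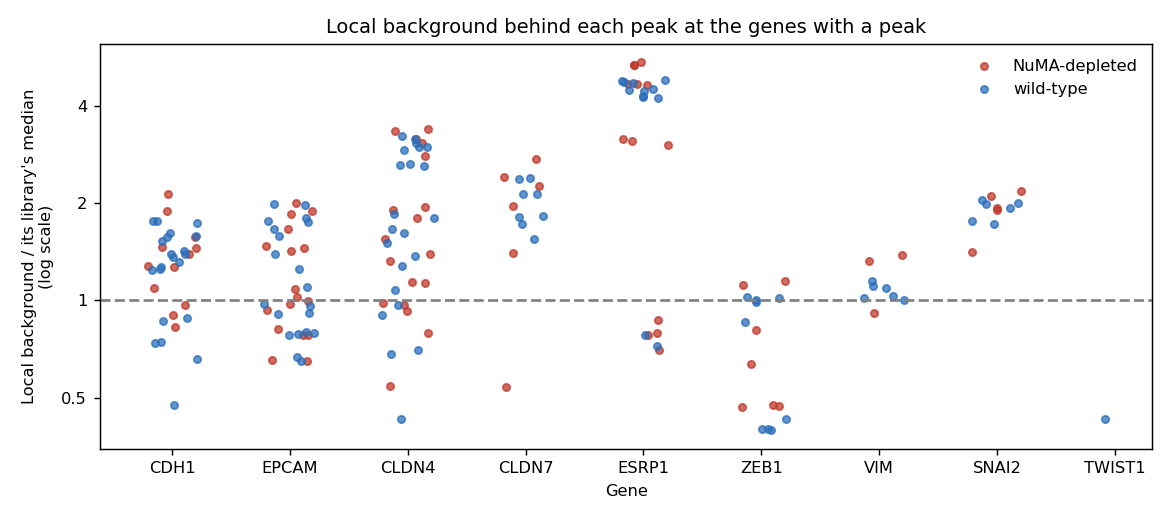
Local background behind each member peak, in fragments, divided by the median background of 2000 peaks drawn from the same library (y axis, log scale), by gene (x axis). Each point is a peak of a NuMA-depleted (red) or wild-type (blue) library, and ESRP1 reaches 5.45 times the median in a depleted and 4.79 times in a wild-type library.

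ESRP1 also had the 1 member region (2.27% of the 44) that was called in 2 depleted and no wild-type libraries, a pattern of NuMA-depleted replicates 1 and 2 that 3.94% of all regions had. It lay 52.5 to 53.1 kb after the start, at 95705513 to 95706078, with folds of 6.01 and 5.41 in NuMA-depleted replicates 1 and 2. Its summits held 17 and 16 fragments and its ranks were percentile 29.7 and 20.4. The last ESRP1 region, at 95725407 to 95725846 beyond the gene's end, was called in replicates 1 and 2 of both groups, with folds of 3.89 and 4.44 against 5.59 and 5.28. The ESRP1 window held 5, 5 and 3 peaks in depleted and 4, 5 and 3 in wild-type lists (exact permutation p = 1, two-sided).

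ZEB1, a zinc-finger repressor of CDH1, was accessible at its start in every library although it belongs to the mesenchymal set. Its gene spans 31.607 to 31.819 Mb on chromosome 10. The region at 31607164 to 31608494, 0.164 to 1.49 kb after the start, had folds of 6.31, 8.42 and 7.49 in depleted and 6.45, 8.06 and 6.71 in wild-type libraries. The groups overlapped, with NuMA-depleted replicate 2 highest and replicate 1 lowest. In wild-type replicates 2 and 3 the same region held a separate second peak, with folds of 5.92 and 5.73.

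The rest of the ZEB1 window, 232 kb long, held only 2 regions. One at 31642392 to 31643015, 35.4 to 36.0 kb into the gene, had folds of 10.2 and 7.05 in NuMA-depleted replicates 2 and 3 and 6.85 and 9.15 in wild-type replicates 1 and 2. The other, at 31756950 to 31757456, 150.0 to 150.5 kb into the gene, had folds of 8.66 and 6.55 in NuMA-depleted replicates 1 and 2 and 9.73 and 5.66 in wild-type replicates 2 and 3. Each was called in 2 libraries of either group. Their local background was low, 0.396 to 0.635 times the library median, and their summits held 9 to 29 fragments. The ZEB1 window held 2, 3 and 2 peaks in depleted and 2, 4 and 3 in wild-type lists (exact permutation p = 0.7, two-sided).

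ZEB2, the paralogue of ZEB1, had no peak in any of the 6 libraries. Its interval on chromosome 2 runs from 145.141 to 145.278 Mb, 157 kb with both flanks. The nearest region of any library ended 25.2 kb before the interval's lower end, and on the other side the nearest lay 139 kb away. The nearest regions called in all 6 libraries lay 482 and 964 kb away. The whole stretch without a region was 301 kb long. Of 58903 gaps between neighbouring regions, 905 (1.54%) were at least that long, and they made up 30.8% of the genome's length up to the last peak of each chromosome.

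VIM, which encodes vimentin, had 2 regions and none called in all 6 libraries. It lies on chromosome 10 from 17.270 to 17.280 Mb. The region 0.245 to 0.789 kb after the start, at 17270245 to 17270789, had folds of 6.42, 4.78 and 4.77 in the wild-type libraries. Of the depleted libraries only replicate 2 called it, with a fold of 5.38, inside the wild-type range. The region at 17272178 to 17272872, 2.18 to 2.87 kb after the start, had folds of 5.88, 6.90 and 5.72 in the wild-type libraries and 5.16 and 5.58 in NuMA-depleted replicates 1 and 2. NuMA-depleted replicate 3, the shortest list, called neither. The VIM window held 1, 2 and 0 peaks in depleted and 2, 2 and 2 in wild-type lists (exact permutation p = 0.4, two-sided). Without NuMA-depleted replicate 2 the groups no longer overlapped, with a difference of -1.5 peaks (exact permutation p = 0.1, with 2 against 3). Of 100 kb tiles, 5.7% did not overlap in either direction at that setting, but they are longer than VIM's window of 30 kb. At equal numbers of peaks the VIM numbers were 0, 0 and 0 in depleted against 2, 1 and 0 in wild-type lists. With flanks of 20 kb they were 2, 3 and 0 against 2, 2 and 2. The groups overlapped or touched in both.

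SNAI2, which encodes the repressor also called SLUG, had a start region that ranked above that of ZEB1 in 5 of 6 libraries, NuMA-depleted replicate 3 being the exception. It lies on chromosome 8 from 49.830 to 49.835 Mb. The region at 49833924 to 49834615, 0.385 to 1.08 kb into the gene, was called in all 6 libraries with folds of 7.07, 7.02 and 5.71 in depleted and 8.35, 7.11 and 7.03 in wild-type libraries. The groups overlapped, by 7.07 against 7.03. It ranked between percentile 55.9 and 90.7 of its lists, above the CDH1 start region in NuMA-depleted replicates 1, 2 and 3 and in wild-type replicates 1 and 3. A region about 1 kb upstream, at 49835970 to 49836281, was called in NuMA-depleted replicate 1 and wild-type replicates 1 and 3, with folds of 6.25, 6.09 and 5.13. The third, at 49838286 to 49838602, was called in the second replicate of each group, with folds of 3.28 and 3.27. No other region of any library lay between the gene and a point 51.7 kb below it. The SNAI2 window held 2, 2 and 1 peaks in depleted and 2, 2 and 2 in wild-type lists (exact permutation p = 1, two-sided).

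TWIST1, a helix-loop-helix factor of mesoderm and of the transition, had a single weak call. The region on chromosome 7 at 19156886 to 19157075 lay inside the gene, which runs from 19.155 to 19.158 Mb, and was called in wild-type replicate 2 only. Its fold of 5.55 rested on 9 fragments, and it ranked at percentile 12.7. It was 190 bp wide, the smallest width in that list. Of all merged regions, 25.1% were likewise called in 1 library, and of the 44 member regions 5 were (11.4%).

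**Figure D3:**
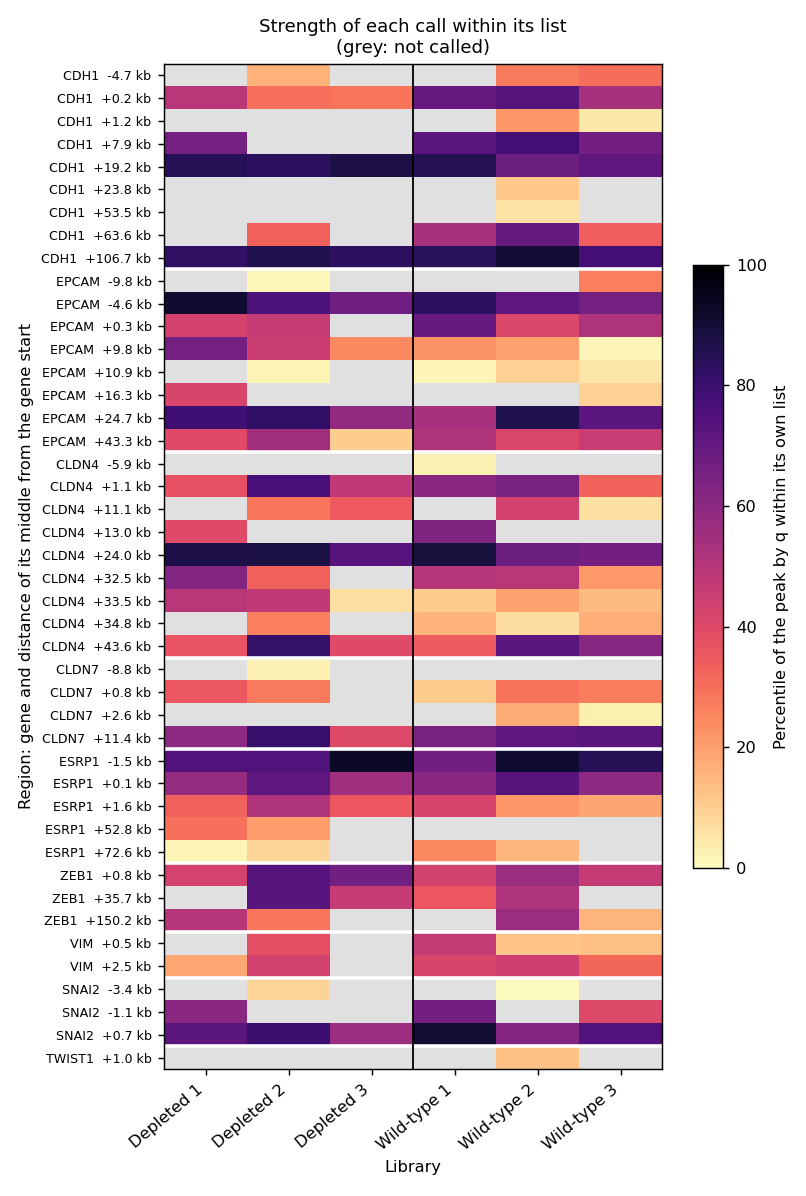
Strength of every call at the 44 regions, as the percentile of the peak by q within its own list (colour, 0 to 100). Rows are regions, named by gene and distance of the region's middle from the start of the gene's interval in kb. Columns are libraries. Grey cells were not called, and NuMA-depleted replicate 3 has the most grey cells, 25 of 44.

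No region at the 10 genes was shared by one whole group while missing from the whole other group. The count was 0 of 44 in both directions, beside 0.625% of all regions called in the 3 depleted libraries only and 0.592% in the 3 wild-type libraries only. With 2 of 3 libraries required in place of all 3, the ESRP1 region named above was called in depleted libraries only, and 1 site each at CDH1 and CLDN7, at 68772080 to 68772398 and 7164265 to 7164587, in wild-type libraries only. Of all regions, 5.04% met that requirement for depleted and 2.85% for wild-type libraries. With the strongest 21783 peaks of each list 1 region, the CDH1 site at 68834126 to 68835112, was called in the 3 wild-type libraries only, since the peak of NuMA-depleted replicate 2 there was not among them.

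The wild-type libraries nevertheless called the member regions more often than their lists' share of all regions. Wild-type replicates 1, 2 and 3 called 31, 37 and 34 of the 44 regions, or 70.5%, 84.1% and 77.3%, against 59.0%, 64.2% and 54.3% of all regions. NuMA-depleted replicates 1, 2 and 3 called 28, 34 and 19, or 63.6%, 77.3% and 43.2%, against 64.3%, 77.6% and 36.4%. The excess over the list's own share was thus 11.4, 19.9 and 22.9 percentage points in the wild-type libraries and -0.71, -0.325 and 6.75 in the depleted libraries, and the groups did not overlap. It rests on a list of genes chosen with results known and has no test. At equal numbers of peaks, where 28 member regions remained, the excess was 16.3, 5.49 and -1.62 points against -5.31, -12.6 and 6.07, and the groups overlapped.

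**Figure D4:**
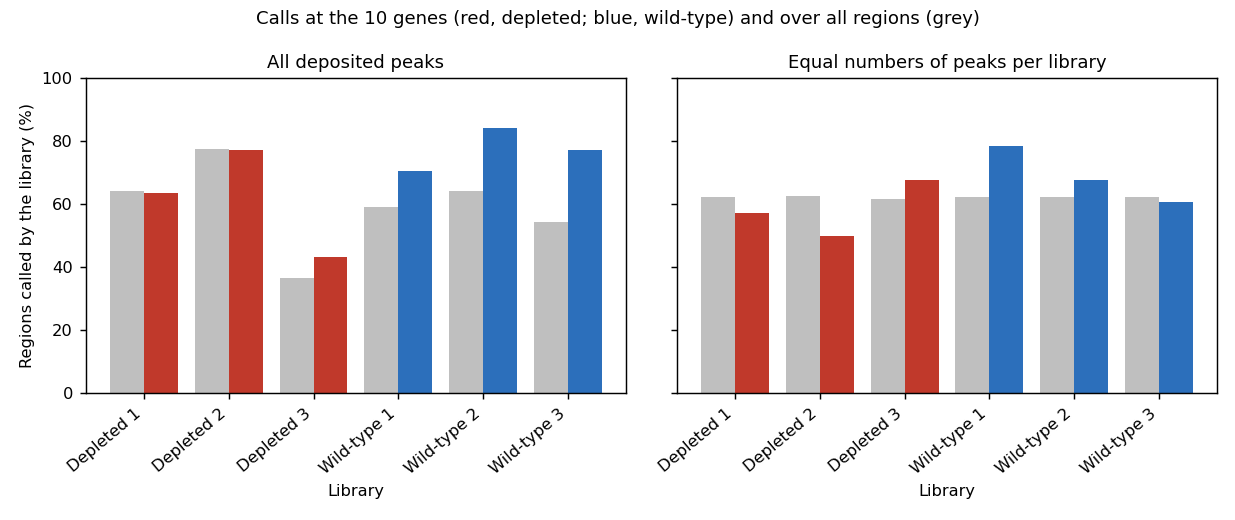
Percent of regions called by each library (y axis), over all merged regions (grey bars) and over the regions at the 10 genes (red, NuMA-depleted; blue, wild-type), with all deposited peaks (left) and with equal numbers of peaks per library (right). With all peaks the wild-type libraries exceed their grey bars by 11.4 to 22.9 points, and at equal numbers wild-type replicate 3 falls below its grey bar.

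Sharing within a group was also more frequent in wild-type libraries. All 3 wild-type libraries called 26 of the 44 regions (59.1%) and all 3 depleted libraries 17 (38.6%), beside 40.7% and 33.4% of all regions. The 17 were the same regions that all 6 libraries called, so 9 regions (20.5%) were complete in wild-type but not in depleted libraries and 0 the other way round, beside 11.9% and 4.57% of all regions. All 9 lacked a call in NuMA-depleted replicate 3, the shortest list. Without that library the counts were 5 and 3 of 44, beside 3.19% and 19.0% of all regions, and at equal numbers of peaks they were 4 and 0 of 28, beside 9.78% and 7.63%. Of them 4 (9.09% of the 44) lacked only that replicate, at EPCAM, CLDN4, CLDN7 and VIM, beside 8.69% of all regions. A further 4 lacked NuMA-depleted replicates 1 and 3, at CDH1, EPCAM, CLDN4 and VIM, beside 1.57% of all regions, and 1 (2.27%), at CDH1, lacked replicates 2 and 3, beside 0.441%.

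**Figure D5:**
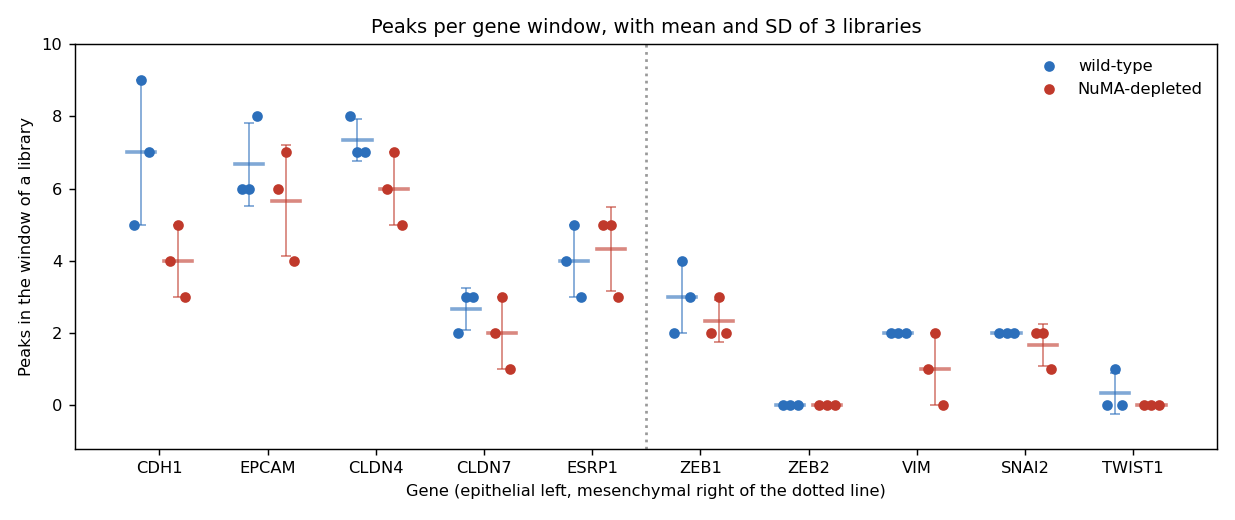
Peaks in the window of each of the 10 genes (y axis, number per library), for wild-type (blue) and NuMA-depleted (red) libraries, with the mean (line) and SD (error bar) of 3 libraries. The CDH1 means are 7.0 and 4.0, and ZEB2 is at 0 in all 6 libraries.

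The mean peak number was lower in the depleted than in the wild-type lists at 8 of the 10 genes, equal at 0 for ZEB2 and higher at ESRP1, and the groups overlapped or touched at all 10. Of 100 kb tiles with a peak, 37.6% had a lower and 36.5% a higher mean in the depleted lists. The tiles were not matched to the gene windows in length or peak number. At equal numbers of peaks only 3 of the 10 genes were lower, CDH1, VIM and SNAI2, with 6 equal and CLDN4 higher, beside 34.1% of tiles lower and 33.7% higher. Over whole neighbourhoods there was no detected change. Of 2022 bins of 1 Mb tested with limma on the log2 share of a library's peaks, 0 changed at a Benjamini-Hochberg adjusted p under 0.05, a percent called of 0, and 114 had an unadjusted p under 0.05. The bins with the starts of 9 of the 10 genes were among the 2022. CLDN4's bin, 73 to 74 Mb on chromosome 7, had the smallest p of the 9, 0.0397 unadjusted by limma, and the other 8 ran from 0.138 to 0.892. It held 49, 57 and 22 peaks in depleted and 45, 55 and 48 in wild-type lists, a log2 difference of -0.24 (SE 0.109) with an adjusted p of 0.872 by limma. CDH1's bin held 36, 42 and 18 against 31, 36 and 31 peaks, a log2 difference of -0.04 (SE 0.107, adjusted p = 0.995 by limma). ZEB2's bin held 1 to 6 peaks and was under the minimum mean of 5 peaks.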

How the data were processed

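The files are 6 ATAC-seq peak lists of HCT116 cells, 1 per library, grouped by the genotype label. The authors used Trim Galore, Bowtie2 2.4.1, Picard and hg19, per the submitters' processing notes. Peak names in the files record a macs2 folder. The sources used here do not give its version, its settings or the read filters. The authors' deposited columns used were the interval, the summit, the fold against local background, which is a linear ratio, and both −log10 p and −log10 q. The smallest −log10 q was 2.00. The deposited score follows −log10 q and was not used, and the deposited summit offset gave peak positions.

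Peaks sharing at least 1 bp were merged. Gene intervals are given to the nearest kb, so distances from a start have that precision, and a region within 1 kb of a start counts as at the start. A start here is that of the interval, which for EPCAM and CLDN4 lies upstream of the usual promoter. The summit's fragment number k and background λ were solved from fold = (k + 1)/(λ + 1) and the Poisson upper tail beyond k. All 186 member peaks gave a whole k within 0.01 on the −log10 p scale. This assumes that form of the fold. Background was set against the median of 2000 peaks drawn per library. Peak numbers per window were compared with the exact permutation test, two-sided (20 assignments). Summits were counted in 1 Mb bins, and bins averaging 5 or more were kept. With limma (3.58.1, R 4.3.3) the log2 of each count plus 0.5, over the library's total, was compared between groups, Benjamini-Hochberg adjusted. That fit was run on simulated Poisson counts without further spread between libraries. The run therefore cannot show what size of change would be found in these lists. All 10 genes are named, with every region called in all 6 libraries and the region nearest each start where 1 exists. Further regions were chosen after their values were seen. Other genes of the transition were not analysed here. Other work used Python 3.11.15, numpy 2.4.6, pandas 2.3.3 and scipy 1.17.1. The members and lists were chosen with earlier results of these data known. No read depth is given, so precision rests on the recovered fragments.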

Additional observations from a re-analysis of the deposited data

How the results depend on the processing

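The count of 17 member regions called in all 6 libraries fell to 9 at equal numbers of peaks, ran from 17 to 21 with 1 library omitted, and from 12 to 22 under the other alternatives. Regions of the depleted group alone, 0, became 1 with 2 of 3 libraries required and 0 to 1 with 1 library omitted, the 1 being found without NuMA-depleted replicate 3. Those of the wild-type group alone, 0, became 1 at equal numbers, 2 with 2 of 3 libraries required, and 0 to 4 with 1 library omitted: 4 without NuMA-depleted replicate 2, 1 without NuMA-depleted replicate 1 and 2 without wild-type replicate 1. Fewer libraries make the requirement easier by construction. The alternative with equal numbers in 5 libraries, without NuMA-depleted replicate 3, was chosen after seeing the data and gave 20, 0 and 0. Over 110 recomputed differences in peak number per gene, 2 changed sign: CLDN4 (-1.33) became 0.333 at equal numbers and ESRP1 (0.333) became -0.167 without wild-type replicate 3; the cause was not tested. A further 13 became 0, of which 5 at equal numbers, at EPCAM, CLDN7, ESRP1, ZEB1 and TWIST1. For CDH1 the difference, -3.0, ran from -4.0 to -2.0 over 11 alternatives, with exact p from 0.1 to 0.3. Bins changed numbered 0 by limma under each alternative, including the replicate block (0 of 2022, smallest adjusted p 0.889, 98 bins at an unadjusted p under 0.05). Same-numbered libraries did not deviate together (correlations across bins of -0.0771, 0.0923 and 0.00668), and the labels do not say that a number pairs samples. Depth limits absence: the fewest fragments behind a member call were 7.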
